A study of Homo sapiens with 8 samples.

Results

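Genes of the gastric lineage were examined across all arrays of the series: CTSE, PGC, LIPF, CAPN9, CLDN18, GKN1, PSCA and SOX2. They were taken by gene symbol from the platform's annotation and are read by 13 of its 22277 probe sets. As genes they are 8 of 11963. The arrays compared 2 human cell lines with and without a short hairpin RNA (shRNA) that targets GATA6, an endoderm transcription factor, in a project on gastric cancer. The groups were HUG1N cells with GATA6 shRNA, HUG1N control cells, Caco-2 cells with GATA6 shRNA and Caco-2 control cells, with 2 arrays each. HUG1N, called HuG-1 in some labels, is a gastric cancer line, and Caco-2 is a colorectal adenocarcinoma line with enterocyte features. Per the labels, cells were grown in the medium that the cell bank recommends, infected, selected with puromycin and harvested. The labels give neither the treatment of the control cells, the number of hairpins and the time of harvest, nor the cultures behind the 2 arrays of each group. The p-values therefore measure the spread between these arrays only, which may be technical.

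The stomach epithelium holds surface mucous cells, mucous neck and gland cells, acid-secreting parietal cells and enzyme-secreting chief cells. CTSE, an intracellular aspartic protease, GKN1, a secreted gastrokine, and CAPN9, a calpain of the digestive tract, are known from the surface mucous cells. PGC (pepsinogen C) and LIPF (gastric lipase) are digestive enzymes secreted by gland cells. CLDN18 is a tight junction claudin with a stomach form, PSCA is a membrane-anchored protein of the Ly6 family made in gastric epithelium, and SOX2 is a transcription factor of the foregut. GATA factors bind DNA motifs with the core GATA and take part in endoderm development.

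Of the 8 genes, 4 were measured above background, all in HUG1N. CTSE, CLDN18 and PGC were lower in HUG1N cells with GATA6 shRNA than in HUG1N control cells, and PSCA was at 124% of its control level without passing the test. GKN1, SOX2, CAPN9 and LIPF did not exceed log2 4, the level taken as background, on any of the 8 arrays. None of the 8 genes exceeded log2 4 on any Caco-2 array. Values are log2 expression after the authors' GCRMA normalization, whose lowest value was 2.08 on every array. A group with no array over log2 4 therefore gives only a bound on a fold change, taken against log2 4. In these bulk samples, fewer cells making a transcript and less transcript per cell cannot be told apart.

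The promoters of the 3 genes that were lower with the shRNA are shown because the treatment targets a GATA factor. They come from RefSeq (GRCh38.p14), run 5′ to 3′ on the strand of the gene and cover 250 bases before to 50 bases after an annotated start site. The table held promoters for 7 of the 8 genes. Capitals mark the hexamers searched on either strand, which were AGATAA together with AGATAG as well as TGATAA together with TGATAG. On the opposite strand TGATAA reads as TTATCA. No marked hexamer overlaps another marked one.
CTSE, chr1:206023846-206024145, minus strand: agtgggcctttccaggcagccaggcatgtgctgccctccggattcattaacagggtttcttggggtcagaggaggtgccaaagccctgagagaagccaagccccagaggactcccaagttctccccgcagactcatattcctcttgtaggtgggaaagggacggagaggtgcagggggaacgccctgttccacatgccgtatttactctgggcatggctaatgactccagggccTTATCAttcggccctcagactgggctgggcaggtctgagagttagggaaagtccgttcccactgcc
CLDN18 upstream start, chr3:137998566-137998865, plus strand: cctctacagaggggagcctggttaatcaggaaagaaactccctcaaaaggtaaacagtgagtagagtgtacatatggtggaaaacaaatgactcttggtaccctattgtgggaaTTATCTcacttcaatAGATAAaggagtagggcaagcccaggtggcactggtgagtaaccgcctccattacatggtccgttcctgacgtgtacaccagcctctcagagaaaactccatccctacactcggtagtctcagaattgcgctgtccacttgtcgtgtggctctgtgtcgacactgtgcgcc
CLDN18 downstream start, chr3:138009915-138010214, plus strand: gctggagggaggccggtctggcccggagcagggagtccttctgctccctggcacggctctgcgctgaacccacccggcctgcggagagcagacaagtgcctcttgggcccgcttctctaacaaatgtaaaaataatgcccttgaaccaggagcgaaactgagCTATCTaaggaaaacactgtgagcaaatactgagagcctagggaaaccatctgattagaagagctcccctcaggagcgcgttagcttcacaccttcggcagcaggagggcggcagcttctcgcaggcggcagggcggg
PGC, chr6:41747348-41747647, minus strand: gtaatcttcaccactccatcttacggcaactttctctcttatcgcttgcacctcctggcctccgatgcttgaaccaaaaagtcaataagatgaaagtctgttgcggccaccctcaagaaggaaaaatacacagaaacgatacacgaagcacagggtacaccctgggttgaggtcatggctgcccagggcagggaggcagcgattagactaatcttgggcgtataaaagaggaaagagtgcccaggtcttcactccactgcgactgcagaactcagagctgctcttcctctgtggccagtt

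The CTSE promoter held 1 such hexamer, TGATAA on the opposite strand, with its first printed base at position -16 from the start site. CLDN18 has 2 annotated start sites, and its lung form is known to start at the upstream one and its stomach form at the downstream one. The upstream window held AGATAA at positions -136 on the opposite strand and -121 on the printed strand. The downstream window held AGATAG on the opposite strand at position -88. The PGC window held 0 of these hexamers. Among the genes below background, the windows of GKN1 and LIPF held 3 and 1, and those of SOX2 and CAPN9 held 0 each. At least 1 hexamer lay in 25.0% of all 35116 RefSeq windows of this length, so a match describes the letters and is no evidence of binding.

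**Figure D1:**
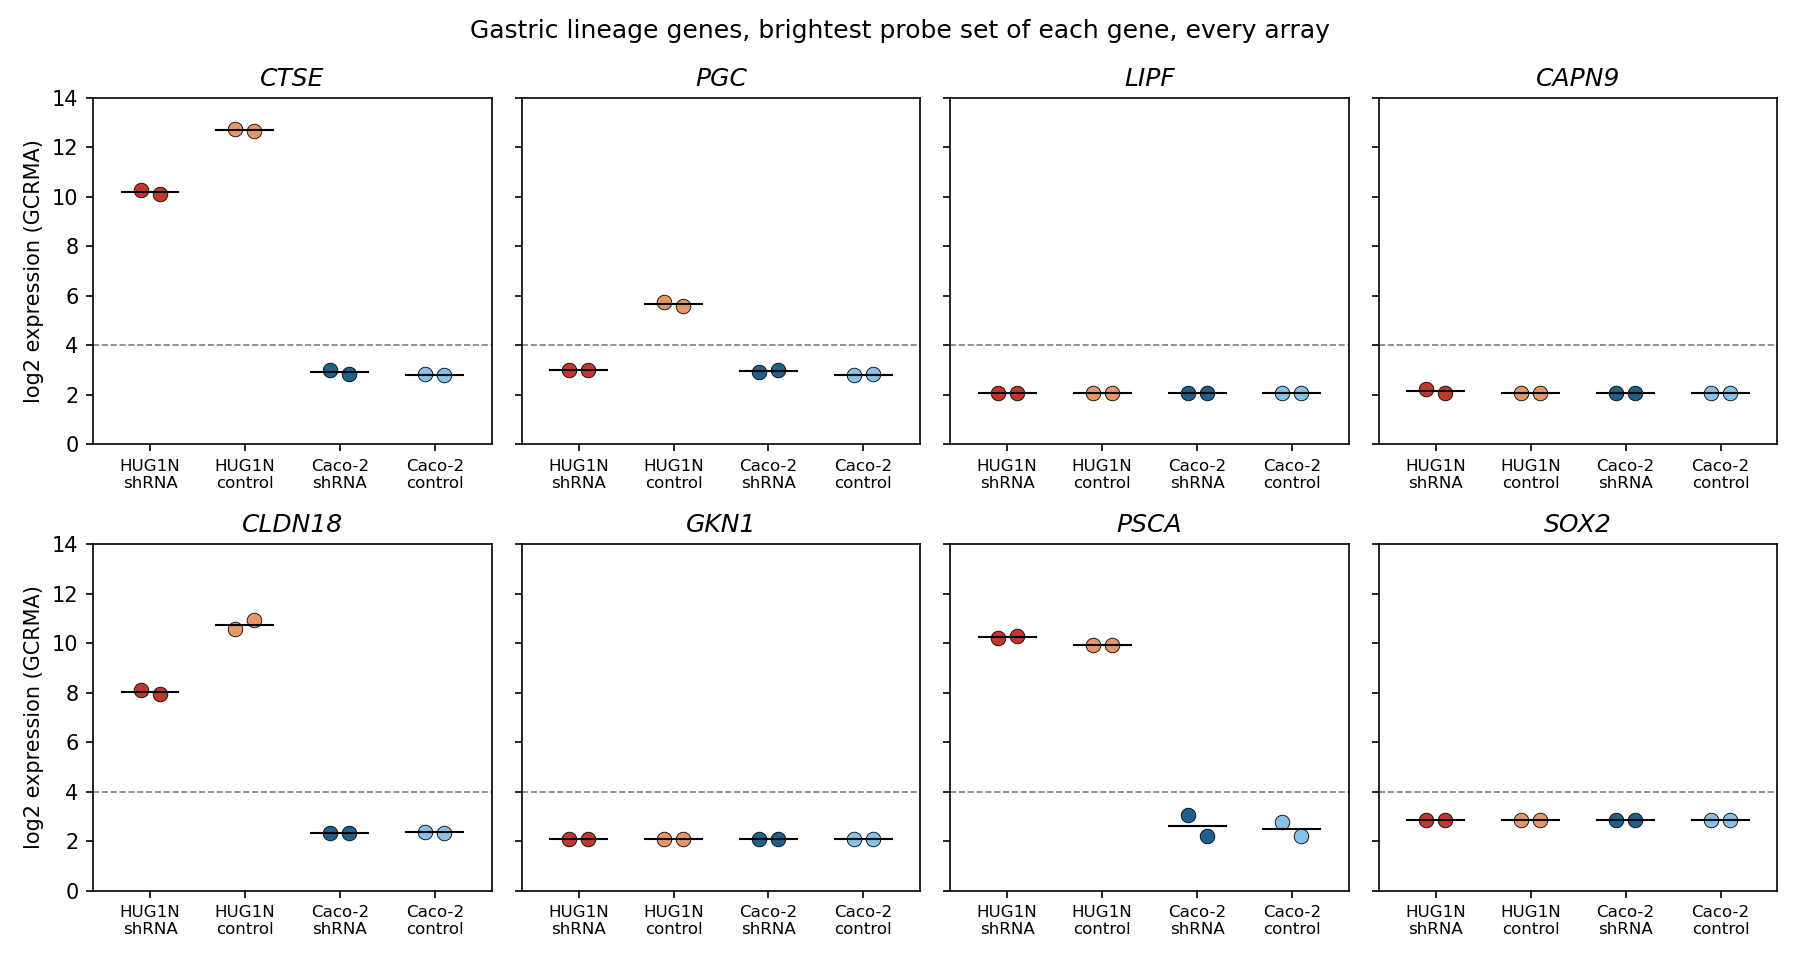
Log2 expression (GCRMA) of the 8 gastric lineage genes, brightest probe set of each, in HUG1N shRNA, HUG1N control, Caco-2 shRNA and Caco-2 control cells. Points are single arrays, short lines are the means of 2 arrays, and the dashed line is log2 4. CTSE, CLDN18, PGC and PSCA rise above log2 4 in HUG1N, and no point does in Caco-2.

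CTSE, the aspartic protease of gastric surface cells, was read by 1 probe set. Its log2 values were 10.28 and 10.13 in HUG1N cells with GATA6 shRNA, against 12.74 and 12.68 in HUG1N control cells. Both shRNA arrays lay more than 2 log2 units below both control arrays, and the arrays within each group differed by under 0.2. The change was -2.51 (SE 0.09, limma adjusted p = 3.37e-05), a 5.69-fold fall that left 17.6% of the control level. Its 95% interval ran from -2.72 to -2.30 on the log2 scale.

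CLDN18, the claudin of gastric tight junctions, was read by 3 probe sets. The brightest of them gave 8.11 and 7.97 in HUG1N cells with GATA6 shRNA, against 10.57 and 10.93 in HUG1N control cells. The groups did not overlap, and the control arrays differed from each other more than the shRNA arrays did. The change was -2.71 (SE 0.13, limma adjusted p = 5.57e-05), a 6.55-fold fall to 15.3% of the control level (95% interval -3.01 to -2.41 on the log2 scale). A second probe set lay at 2.08 on both HUG1N shRNA arrays, against 6.54 and 7.23 on the HUG1N control arrays. With the shRNA group below background, this is at least 7.41-fold lower. The probe set was called among 12702 (46.8% called, 23.3% lower), but it entered the test only through the HUG1N control arrays, so that a difference was built into its selection. The third was 2.08 on both HUG1N shRNA arrays, against 2.74 and 3.05 on the HUG1N control arrays, and stayed below log2 4 throughout. Which of the 2 CLDN18 transcripts a probe set reads is not known here, so the shown promoters cannot be assigned to one of them.

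**Figure D2:**
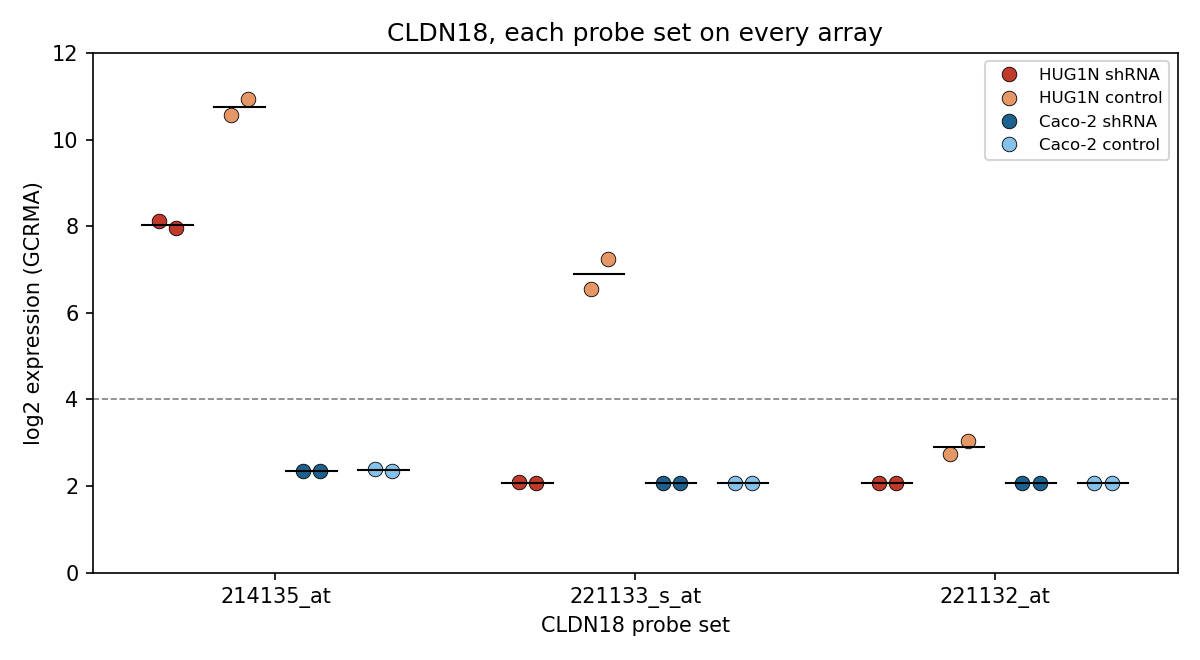
Log2 expression (GCRMA) of the 3 CLDN18 probe sets in each group, with single arrays as points, group means as short lines and log2 4 as a dashed line. In the probe set on the left the HUG1N shRNA arrays (8.11 and 7.97) lie below the HUG1N control arrays (10.57 and 10.93), and the middle one exceeds log2 4 on the HUG1N control arrays only.

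PGC, the pepsinogen whose active form digests protein in the stomach, was read by 1 probe set. Its log2 value was 3.01 on both HUG1N shRNA arrays, against 5.74 and 5.61 on the HUG1N control arrays. The HUG1N shRNA arrays were thus at the level of the Caco-2 arrays, where PGC lay between 2.78 and 3.01. PGC was at least 3.19-fold lower with the shRNA (limma adjusted p = 1.93e-05). It entered the test only through the HUG1N control arrays, so a difference was built into its selection. The gene was also dim where it was measured, and a fold change beyond the bound has no fixed size.

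PSCA, the Ly6 family protein, was not lower in HUG1N with the shRNA. Its log2 values were 10.22 and 10.28 in HUG1N cells with GATA6 shRNA, against 9.94 in both HUG1N control arrays. Both shRNA arrays lay above both control arrays. The change was 0.31 (SE 0.30, limma adjusted p = 0.425), with a 95% interval of -0.41 to 1.03, and it did not pass the test. The spread that entered this test came mainly from Caco-2, where PSCA was below background at 3.05 and 2.20 with the shRNA and at 2.75 and 2.20 in control cells. The SD was 0.037 and 0.0025 in HUG1N shRNA and control arrays, and 0.60 and 0.39 in Caco-2 shRNA and control arrays. With the HUG1N arrays fitted alone, the same change had an adjusted p of 0.0269 by limma, and with all values under log2 4 set to 4 it had an adjusted p of 0.00564. The adjusted p ran from 0.00564 to 0.684 over 20 alternatives.

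GKN1 and LIPF, a secreted surface cell protein and the gastric lipase, lay at 2.08 on all 8 arrays. SOX2 had 3 probe sets, of which 1 read 2.87 on all 8 arrays and the others 2.08. CAPN9 had 2 probe sets, and the higher of them reached at most 2.25, on 1 HUG1N shRNA array. None of these values is above background, so no change could be measured for these 4 genes in either line.

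In HUG1N, limma thus called 3 of the 4 members tested lower and 0 higher, at an adjusted p under 0.05 over 7696 genes. Over all genes, 48.7% were called in HUG1N, 23.9% lower and 24.7% higher with the shRNA. Changes were therefore common in this line, and the count of 3 alone says little about gastric genes. The size of the changes was less common. Among the 1747 genes called lower with at least 1 array over log2 4 in both HUG1N groups, CLDN18 had the 22nd largest fall and CTSE the 34th. In Caco-2, 0 members were called by limma and 0 had an unadjusted p under 0.05, where 38.7% of all genes were called. With every Caco-2 value of the members below background, this count carries no measurement of an effect.

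**Figure D3:**
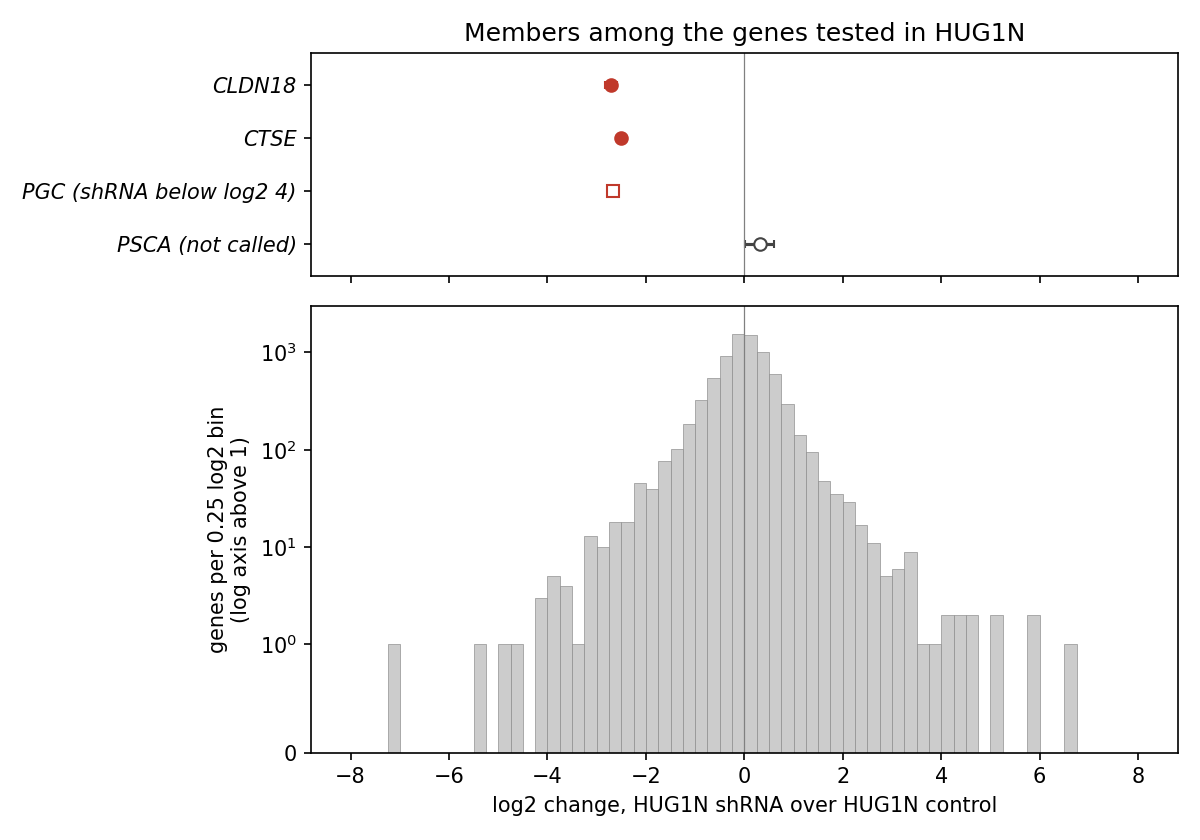
Log2 change in HUG1N shRNA over HUG1N control arrays. The upper panel gives the 4 members tested with their standard errors, filled where called with both groups measured and a square for PGC, whose shRNA group was below log2 4; the lower panel gives the number of tested genes per bin of 0.25. CLDN18 (-2.71) and CTSE (-2.51) lie in the lower tail and PSCA (0.31) near the centre.

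GATA6 itself stayed high on these arrays. Its log2 values were 12.26 and 12.22 in HUG1N cells with GATA6 shRNA, against 12.54 and 12.45 in HUG1N control cells. The groups did not overlap, but the change of -0.25 (SE 0.10, limma adjusted p = 0.0879) did not pass the test. It passed with a variance trend (adjusted p = 0.0427). The members that were lower thus sat in arrays whose GATA6 signal was 83.9% of the control level. This signal is transcript on the brightest GATA6 probe set, and the level of GATA6 protein is not known here. The arrays also differed in a measure of RNA quality, the gap between the 3′ and 5′ control probe sets of ACTB. This gap was 3.69 and 3.77 log2 units in HUG1N shRNA arrays, against 2.68 and 2.35 in HUG1N control arrays. Its part in the changes of CTSE, CLDN18 and PGC was not tested.

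Between the lines, the 4 measured members were above background in HUG1N only. By the test of the shRNA effect between lines, 3 of the 4 differed (limma, 44.9% of all genes tested did), with no Caco-2 effect measured for any of them. Against Caco-2 control cells, CTSE was at least 419.7-fold, CLDN18 at least 108-fold, PSCA at least 61.3-fold and PGC at least 3.19-fold higher in HUG1N control cells. The limma adjusted p ran from 7.08e-09 for CTSE to 1.79e-06 for PSCA, and 78.4% of all genes tested were called between these groups. The 4 members passed the filter only through HUG1N, so that a difference was built into their selection. In HUG1N cells with GATA6 shRNA, CTSE at 10.20 and CLDN18 at 8.04 still stood above every Caco-2 array, whose highest values were 2.99 and 2.38.

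The labels of the lines were checked against markers. Of 7 markers of gastric or general epithelium, which included the gastric mucin MUC5AC and the trefoil peptides TFF1 and TFF2, 7 exceeded log2 4 on every HUG1N array and 6 on every Caco-2 array. MUC5AC was the exception, at 9.93 in HUG1N shRNA, 9.35 in HUG1N control, 2.37 in Caco-2 shRNA and 2.40 in Caco-2 control cells. These 7 markers included MUC6, which read the same 5.55 on a HUG1N control and a Caco-2 control array, so its level may be background. Of 7 markers of intestinal cells, 5 exceeded log2 4 on every Caco-2 array and 3 on every HUG1N array. The intestinal transcription factor CDX2 averaged 3.28 and 3.40 in HUG1N shRNA and control cells, below background, against 5.96 and 6.57 in Caco-2 shRNA and control cells. LGALS4, a galectin of gut epithelium, went against its place as a Caco-2 marker, at 14.23 and 14.21 in HUG1N shRNA and control cells and 2.55 and 4.34 in Caco-2 shRNA and control cells. ALPI, the intestinal alkaline phosphatase, was below background in both lines.

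The arrays gave other genes with profiles like those of the members, measured by Pearson's r over the 8 arrays. CTSE was most like LXN (r = 0.9998), DNM1 (r = 0.9995) and GBP1 (r = 0.9993), which fell by 2.04, 1.95 and 1.33 on the log2 scale in HUG1N. CLDN18 was most like IL15RA (r = 0.9997), RTP4 (r = 0.9994) and CLOCK (r = 0.9992). PGC was most like IL1B (r = 0.998), PLCB4 (r = 0.997) and GCKR (r = 0.997), whose means lay over log2 4 in HUG1N control cells alone. PSCA was most like EIF5A2, CNOT2 and FBXO3 (r = 0.999 each). All of these genes were picked for their likeness on these arrays, so their like changes in HUG1N were built into the selection. Among the members, CTSE and CLDN18 had r = 0.998, and PGC and PSCA had r = 0.585. The 8 points fall into 2 lines, so the values for CTSE, CLDN18 and PSCA mostly describe the difference between lines. Those for PGC mostly set the HUG1N control arrays apart from all other arrays, HUG1N shRNA included.

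Other genes of gastric surface and mucous cells moved in both directions in HUG1N. Of 20 such genes, 15 had a probe set, here and below one that carried no other gene symbol, and 14 were tested. Of these, 5 rose and 4 fell with the shRNA (limma, with 24.7% of all genes called higher and 23.9% lower). The median change was 0.08, against 0.00 over all genes tested. DUOX2, an oxidase that makes hydrogen peroxide at mucosal surfaces, was 3.06 and 3.28 in HUG1N shRNA cells, against 6.42 and 6.28 in HUG1N control cells. That is at least 5.10-fold lower, in a gene that entered the test only through the HUG1N control arrays. ANXA10, an annexin known from gastric mucosa, was 10.79 and 10.58 in HUG1N shRNA cells, against 12.10 and 12.27 in HUG1N control cells. The change of -1.50 (SE 0.24, limma adjusted p = 0.00309) had the same sign as those of CTSE and CLDN18. TFF1, a trefoil peptide of surface mucus, changed by -0.59 (SE 0.11).

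Other genes of this list rose in the same HUG1N arrays. MUC5AC, the secreted mucin of surface cells, was 9.88 and 9.98 in HUG1N shRNA cells, against 9.24 and 9.47 in HUG1N control cells. Its change of 0.57 (SE 0.13, limma adjusted p = 0.0114) lost the call without HUG1N control replicate 1 (adjusted p = 0.0579) or HUG1N shRNA replicate 2 (adjusted p = 0.0551). AGR2, a disulfide isomerase needed for mucin folding, changed by 1.87 (SE 0.08, limma adjusted p = 5.22e-05). FUT2, a fucosyltransferase that decorates mucins, changed by 0.84 (SE 0.14). MUC1, a membrane mucin, was 15.12 and 15.14 in HUG1N shRNA cells, against 13.93 and 14.06 in HUG1N control cells. Its change of 1.14 (SE 0.40, limma adjusted p = 0.0569) did not pass the test. The spread that entered the test of MUC1 came mainly from the Caco-2 control arrays (SD 0.98). Without HUG1N control replicate 1, 4 of the surface and mucous genes were called in HUG1N in place of 9.

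**Figure D4:**
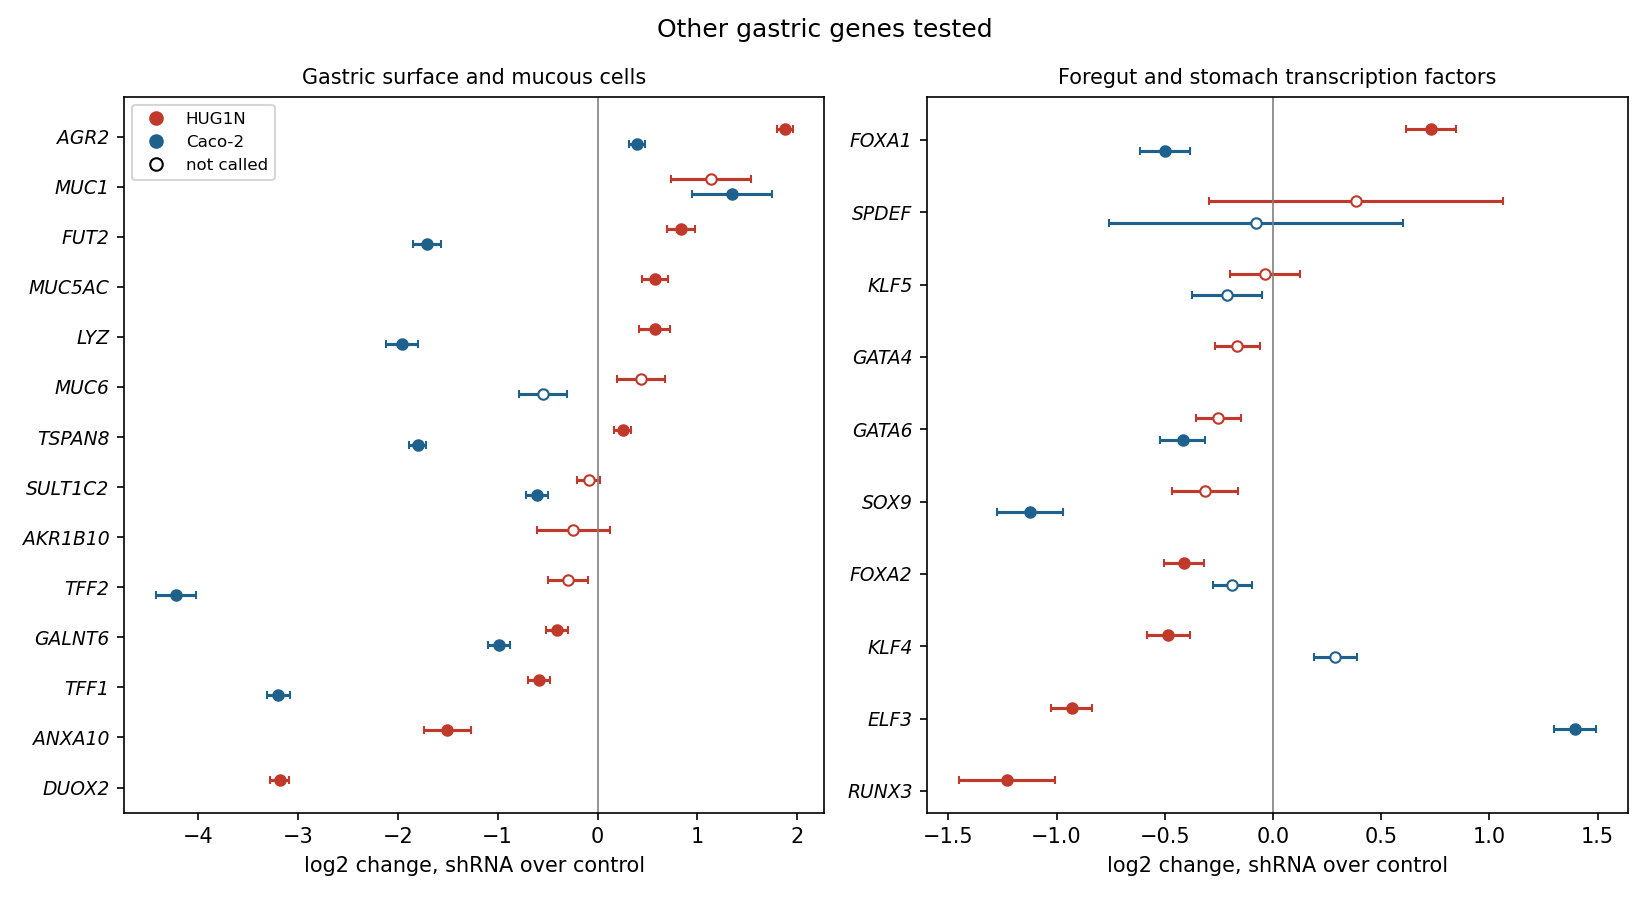
Log2 change, shRNA over control, with standard error, for the tested genes of gastric surface and mucous cells (left) and foregut and stomach transcription factors (right) in HUG1N (red) and Caco-2 (blue). Filled points are called at a limma adjusted p under 0.05, and genes with no array over log2 4 in a line have no point for it. DUOX2 and ANXA10 lie lowest and AGR2 highest among the surface genes in HUG1N.

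In Caco-2, 7 of the same 14 genes fell and 2 rose (19.2% of all genes were called lower and 19.5% higher), with a median change of -0.58 against -0.0030 over all genes tested. TFF2, a trefoil peptide of mucous neck cells, changed by -4.22 (SE 0.20), TFF1 by -3.20 (SE 0.11), lysozyme (LYZ) by -1.96 (SE 0.16), the tetraspanin TSPAN8 by -1.80 (SE 0.08) and FUT2 by -1.71 (SE 0.14). MUC1 changed by 1.35 (SE 0.40, limma adjusted p = 0.0403) in Caco-2. Its call was lost with no filter (adjusted p = 0.136), with the line fitted alone (adjusted p = 0.140), with another of its probe sets (change 0.07, adjusted p = 0.471) and without Caco-2 shRNA replicate 1 (adjusted p = 0.124) or 2 (adjusted p = 0.139). It was also lost without any 1 of the 4 HUG1N arrays (adjusted p = 0.0661 to 0.0663). The ACTB gap was 1.65 and 1.46 in Caco-2 shRNA arrays, against 1.91 and 1.94 in Caco-2 control arrays. Single genes of the lists for other cell types also moved there. Of 12 squamous genes, SCEL, a cornified envelope protein, was 10.92 and 10.99 in Caco-2 shRNA cells, against 3.54 and 3.43 in Caco-2 control cells. The only other squamous gene over log2 4 in Caco-2 was KRT15, at 5.89 and 5.87 in shRNA cells, against 5.83 and 5.78 in control cells. The same 5.83 was read on a HUG1N control array, so the level of KRT15 may be background. Of 9 fibroblast genes, LUM, a matrix proteoglycan, was 7.45 and 7.62 in Caco-2 shRNA cells, against 3.52 and 3.33 in Caco-2 control cells. COL1A1 was 4.35 and 4.32 in Caco-2 shRNA cells, against 4.35 and 3.96 in Caco-2 control cells. COL1A2 and DCN were at 2.08 on all of these arrays. SCEL and LUM entered the test only through the shRNA arrays. The summed level of 8 immune genes (log2 of the linear values above the lowest) was 7.46 to 7.63 in Caco-2 shRNA arrays, against 9.30 to 9.72 in control arrays, and LYZ was its brightest gene. The part of these measures in the changes was not tested.

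Chief and parietal cell genes were mostly below background. Of 20, 13 had a probe set and 4 were tested, of which 1 fell and 0 rose in HUG1N (23.9% of all genes were called lower and 24.7% higher). In Caco-2, 2 rose and 0 fell (19.5% of all genes were called higher and 19.2% lower). CKB, a creatine kinase rich in parietal cells, changed by -1.05 (SE 0.12) in HUG1N and by 0.76 (SE 0.12) in Caco-2. The potassium channel gene KCNJ16 was at least 46.1-fold higher in Caco-2 with the shRNA, where it entered the test only through the shRNA arrays, and below background in HUG1N. The proton pump subunits ATP4A and ATP4B and intrinsic factor (CBLIF), named after their values were seen, lay at 2.08 on all 8 arrays. Of 8 gastric endocrine genes, 7 had a probe set and 0 were tested.

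Transcription factors of the foregut and stomach were also mixed. Of 20, 14 had a probe set and 10 were tested, of which 1 rose and 4 fell in HUG1N (24.7% of all genes were called higher and 23.9% lower). RUNX3, a factor of gastric epithelium, changed by -1.23 (SE 0.22, limma adjusted p = 0.00529), and ELF3, an epithelial ETS factor, by -0.93 (SE 0.10, limma adjusted p = 6.70e-04). The size of the ELF3 change depended on the processing and ran from -1.06 to -0.27 over 20 alternatives. FOXA1, a pioneer factor of endoderm, changed by 0.73 (SE 0.12). KLF4 changed by -0.48 (limma adjusted p = 0.00876), lost with the line fitted alone (adjusted p = 0.0531). FOXA2 changed by -0.41 (limma adjusted p = 0.0112), lost without HUG1N control replicate 1 (adjusted p = 0.0569). In Caco-2, 1 rose and 4 fell (19.5% of all genes were called higher and 19.2% lower), 1 of those that fell, GATA4, without an array over log2 4. ELF3 changed by 1.40 (SE 0.10) and SOX9 by -1.12 (SE 0.15) in Caco-2. GATA6 and FOXA1 changed by -0.42 and -0.50 there, and both calls were lost without Caco-2 control replicate 1 (adjusted p = 0.114 and 0.0949) or Caco-2 shRNA replicate 2 (adjusted p = 0.0964 and 0.0722). Both were lost with no filter (adjusted p = 0.0562 and 0.0527), that of GATA6 with the line fitted alone (adjusted p = 0.0724) and that of FOXA1 without Caco-2 shRNA replicate 1 (adjusted p = 0.0699). The number of such factors called in Caco-2 was 3 in place of 5 without Caco-2 control replicate 1, without Caco-2 shRNA replicate 2 or with no filter.

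Relatives of the members were measured beside them, and those named kept their call under every alternative that gave them a value. The share of all genes that kept a call in this way was not computed. Among claudins, 5 of 13 with a probe set were tested. CLDN1, a claudin of many epithelia, changed by 1.03 (SE 0.10) in HUG1N, the opposite sign to CLDN18, and CLDN4 by 1.49 (SE 0.11) in Caco-2. Of the Ly6 family, 4 of 9 were tested. LY6D was 6.49 and 5.31 in HUG1N shRNA cells, against 2.58 and 2.66 in HUG1N control cells, at least 3.74-fold higher. It entered the test only through the HUG1N shRNA arrays, and without either of them it had no value, which left 18 alternatives. PLAUR, the urokinase receptor, changed by 3.22 (SE 0.12) and LY6E by 1.11 (SE 0.12) in Caco-2. Of the aspartic proteases, 2 of 3 were tested. In HUG1N 1 rose and 0 fell, where 48.7% of all genes were called, and this call was not kept under every alternative. In Caco-2 0 were called, where 38.7% of all genes were. Of 10 calpains and their partners, 7 were tested, with CAPN7 at 1.41 (SE 0.11) in HUG1N and CAPN2 at 0.97 (SE 0.13) in Caco-2, while CAPN9 was below background. LIPA, the lysosomal acid lipase, changed by 0.79 (SE 0.08) in HUG1N and by -0.44 (SE 0.08) in Caco-2. Of 14 SOX factors, 4 were tested. SOX4 changed by 0.59 (SE 0.07) in HUG1N and by -0.57 (SE 0.07) in Caco-2. ITM2C, a BRICHOS protein like GKN1, changed by -1.55 (SE 0.14) in HUG1N.

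Markers of other lineages were examined in the HUG1N arrays. Of 14 intestinal genes tested, 3 rose and 2 fell with the shRNA (24.7% of all genes were called higher and 23.9% lower) and 6 were below background in both groups. KRT20, a keratin of gut epithelium, was 8.76 and 8.33 in HUG1N shRNA cells, against 4.97 and 3.66 in HUG1N control cells, a change of 4.23 (SE 0.41, limma adjusted p = 5.41e-04). VIL1, the brush border protein villin, changed by 1.15 (SE 0.11). CDX1, an intestinal transcription factor, changed by -1.59 (SE 0.28, limma adjusted p = 0.00457), a call lost with the line fitted alone (adjusted p = 0.0503). FABP1, a fatty acid binding protein, was 2.50 and 2.18 in HUG1N shRNA cells, against 3.86 and 4.71 in HUG1N control cells, at least 1.22-fold lower, a call lost with values under log2 4 set to 4 (adjusted p = 0.206). CEACAM6 changed by 0.50 (SE 0.06), a call lost with the mean of its probe sets (change 0.29, adjusted p = 0.0644) or another of them (change 0.09, adjusted p = 0.738). These intestinal genes moved in the same arrays as CTSE, CLDN18 and PGC, and their part in those changes was not tested. Of 12 squamous genes with a probe set, 2 exceeded log2 4 in each HUG1N group, and their summed level was 8.76 to 8.93 in shRNA arrays, against 9.25 to 9.34 in control arrays. The 2 genes were KRT15 and S100A2, of which S100A2 was 8.57 and 8.69 in HUG1N shRNA cells, against 9.13 and 9.23 in HUG1N control cells. KRT5, KRT13 and KRT14 were at or near the lowest value. Of 5 pancreatic genes 0 exceeded log2 4 in HUG1N. Of 9 fibroblast genes 1 did in each HUG1N group, with a summed level of 4.15 to 4.72 in shRNA arrays, against 4.19 to 4.34 in control arrays. This gene was COL1A1, at 4.85 and 4.35 in HUG1N shRNA cells, against 4.39 on both HUG1N control arrays. COL1A2, COL3A1 and DCN were at or near the lowest value. Of 8 immune genes 1 exceeded log2 4, which was LYZ, also a gastric gene, and PTPRC was at 2.08 on all arrays. Across all probe sets, arrays of 1 group correlated at r of 0.998 to 0.999, shRNA with control arrays of 1 line at 0.987 to 0.988, and HUG1N with Caco-2 arrays at 0.908 to 0.923.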

How the data were processed

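RNA from 8 samples in 4 groups of 2 was measured on Affymetrix human arrays. The deposited values are log2 expression per probe set, which the authors computed by GCRMA (per the submitters' processing notes, without version or settings). GCRMA corrects background by probe base content and sets a shared lowest value, near which fold changes are unreliable. Some probe sets repeated a higher value of their own across arrays, such as 2.87 for SOX2 and 4.53 for CDX1 in Caco-2. A level somewhat over log2 4 may thus still be background. Of 22277 probe sets, 19070 had 1 gene symbol in the platform annotation, and 19058 of these were updated by Entrez identifier through a GRCh38.p14 gene table. The 1043 probe sets with several symbols and the 2164 with none were left out of the gene table. A gene counted as without a probe set may thus share one with another gene. The brightest probe set stood for each of 11963 genes, without control probe sets. The 7696 genes over log2 4 in at least 2 arrays were tested in R 4.3.3 with limma 3.58.1: lmFit on 4 group means, eBayes, two-sided, Benjamini-Hochberg over all genes tested. A call is an adjusted p under 0.05. The test was also run on simulated data, with changes put only into bright genes and equal spread in all groups. That run does not check genes below background in some groups. Arrays at the lowest value hardly vary, so SE and p can be too small for genes dim in some groups. Precision is limited by 2 arrays a group. Alternatives covered the filter, normalization, a floor, the variance model, fits within a line, the probe set used, the replicate block and leaving out each array.

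The members, gene lists and naming rule were chosen with earlier results of these data known. The rule named the members with every probe set, GATA6, up to 6 called genes with the largest change for each list and line (5 for relatives of the members), and the 3 genes most like each measured member. Relatives are given only where the call held under every alternative that gave a value, and lists for other lineages mainly as counts.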

Additional observations from a re-analysis of the deposited data

Results flagged for a closer look

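The response to the shRNA differed between HUG1N and Caco-2, by a limma test of the difference (HUG1N minus Caco-2, log2 units, adjusted p under 0.05), for 3 of the 4 members tested, where 44.9% of all genes tested differed. The differences were -2.61 for CTSE (SE 0.12, adjusted p = 5.66e-05), -2.69 for CLDN18 (SE 0.18, adjusted p = 1.80e-04) and -2.82 for PGC (SE 0.11, adjusted p = 3.04e-05). As these genes were below background on all Caco-2 arrays, the values carry the HUG1N change and no measured Caco-2 response. PGC entered the test only through the HUG1N control arrays. A difference was thus built into its selection, and beyond the bound it has no fixed size.

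Other gastric genes below background in 1 line also differed: DUOX2 by -3.19, ANXA10 by -1.55, MUC5AC by 0.61, KCNJ16 by -6.64 and RUNX3 by -1.35. These values carry the change of the other line only. DUOX2 entered the test only through the HUG1N control arrays and KCNJ16 only through the Caco-2 shRNA arrays. A difference was thus built into their selection, and beyond the bounds of 5.10-fold and 46.1-fold it has no fixed size. Among gastric genes measured in both lines, the differences were 1.48 for AGR2, 2.54 for FUT2, 2.61 for TFF1, 3.93 for TFF2, 2.53 for LYZ, 2.05 for TSPAN8 and -1.82 for CKB. For transcription factors they were -2.33 for ELF3, 1.23 for FOXA1, -0.77 for KLF4 and 0.81 for SOX9. FUT2, FOXA1, LYZ and TSPAN8 were called higher in HUG1N and lower in Caco-2, and CKB and ELF3 lower in HUG1N and higher in Caco-2. Of these, FOXA1 lost its Caco-2 call under 4 alternatives. LYZ (0.57, limma adjusted p = 0.0252) and TSPAN8 (0.25, limma adjusted p = 0.0461) lost their HUG1N calls under 5 and 11 alternatives, among them the loss of HUG1N control replicate 1 (adjusted p = 0.0754 and 0.188) or of either HUG1N shRNA array (adjusted p = 0.0549 to 0.111 for LYZ and 0.103 to 0.134 for TSPAN8). LYZ also lost it without HUG1N control replicate 2 (adjusted p = 0.0996).

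Among relatives of the members, the differences were 0.90 for CLDN1, -0.97 for CLDN4, 0.97 for CAPN7, -1.26 for CAPN2, 1.23 for LIPA, 3.29 for LY6D, -3.39 for PLAUR, -1.66 for LY6E, 1.16 for SOX4 and -0.99 for ITM2C. LY6D was below background on all Caco-2 arrays and entered the test only through the HUG1N shRNA arrays. Its difference was thus built into the selection and has no fixed size. Among genes of other lineages, they were 4.15 for KRT20, -1.48 for FABP1, -1.59 for CDX1, 1.45 for VIL1, -3.57 for CEACAM6, -0.95 for S100A2, -7.44 for SCEL and -4.38 for LUM. In HUG1N, FABP1 exceeded log2 4 on 1 control array only. CDX1 read the same value, 4.53, on every Caco-2 array, so its difference carries the HUG1N change. S100A2 was below background on all Caco-2 arrays, and SCEL and LUM on all HUG1N arrays. SCEL and LUM entered the test only through the Caco-2 shRNA arrays. Their differences were thus built into the selection and have no fixed size.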

How the results depend on the processing

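CTSE, CLDN18 and PGC kept their direction and their call in HUG1N under each alternative that gave a value (20 for CTSE and CLDN18, 18 for PGC). Their log2 changes ran from -2.59 to -2.43, from -2.89 to -2.53 and from -2.67 to -1.68, and the adjusted p reached at most 0.00735, 0.00801 and 0.00695. Wherever a filter was applied, PGC entered the test only through the HUG1N control arrays. A fall was thus built into its selection, so its kept call adds no support. Its range includes values below background and has no measured size beyond the bound. PGC had no value without either HUG1N control array, since it then failed the filter. For the same reason 2 member probe sets were called in HUG1N without HUG1N control replicate 1 or 2, in place of 4. Members called in HUG1N ranged from 2 to 4 over the alternatives, the 4th being PSCA. The change of PSCA passed the test with the line fitted alone and with a floor at log2 4, and no setting made it negative. Leaving out 1 array gave 1838 to 2975 genes called in Caco-2, against 2982 with all arrays; 9 to 15 called in the gastric lists in HUG1N, against 15; 4 to 9 surface and mucous genes in HUG1N, against 9; and 3 to 6 transcription factors in Caco-2, against 5, also 3 with no filter. Fewer arrays and, without a filter, more genes tested are part of these settings' construction. No sign was seen that replicate numbers pair shRNA with control arrays: deviations from the group means correlated at r = -0.016 in HUG1N and 0.066 in Caco-2. Whether the arrays were paired is not known here. With the replicate block, 3 members were called in HUG1N and 0 in Caco-2, as without it, and 3391 and 2485 genes were called in HUG1N and Caco-2. Among genes the text names, the block ended the calls of MUC1 in Caco-2 (adjusted p = 0.0600) and of TSPAN8 (0.0865) and S100A2 (0.0683) in HUG1N. S100A2 lost its HUG1N call under 6 alternatives, which were the block, no filter (limma adjusted p = 0.0914) and leaving out any single HUG1N array. Levels below log2 4 limit what can be said of GKN1, SOX2, CAPN9 and LIPF in both lines and of all members in Caco-2.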
